A study of Mus musculus with 20 samples.

Results

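The collagen genes of old mouse muscle were taken as all protein-coding genes whose GENCODE symbol is Col, a number, a and a number, from Col1a1 to Col28a1. There were 44 such genes among the 55401 of the count matrix, and each was found by its Ensembl identifier. Of these, 29 had a mean of at least 1 CPM (counts scaled to the size of each library) over the 20 mice, and 32 passed the filter on low counts and were tested with 13626 genes in all. The genes were grouped by the structure that their proteins form, with 11 fibrillar genes, 9 FACIT genes (fibril-associated collagens with interrupted triple helices), 6 of type IV, 6 of type VI, 4 transmembrane, 3 that form hexagonal networks, 2 multiplexins and 3 others.

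RNA of the gastrocnemius, the large calf muscle, was sequenced after removal of ribosomal RNA in C57BL/6 mice of 24 months. The 10 HK-treated mice drank water with Haenkenium (HK), an extract of the plant Salvia haenkei with many constituents, at 0.5 mg/kg/day from 20 months of age, that is for 4 months, and the 10 untreated mice drank water alone. Each group held 5 males and 5 females, and the mice were sequenced in 2 experimental batches, 8 in batch 1 (2 males and 2 females per group) and 12 in batch 2 (3 males and 3 females per group). All mice were old, so the values below compare treatments, sexes and batches and say nothing of age. The count per mouse ran from 13900180 to 30469644, and 9 fast myofibre genes such as Ckm and Acta1 summed to between 164700 and 225100 CPM, so genes that define the labelled tissue were high. Some mice were bought and others were bred and aged in-house, and the labels do not say which. The comparisons of treatment, sex and batch below all rest on the same 20 mice.

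Collagens are secreted proteins in which 3 chains wind into a helix rich in glycine and proline. The fibrillar types I, III and V form the fibres of tendon and of the sheaths around muscle fibres and bundles, and FACIT collagens sit on the surface of these fibrils. Type IV forms the sheet of the basement membrane around each myofibre and capillary, and type VI forms beaded filaments that link that sheet to the fibrils. In muscle most of these genes are known to be read in fibroblasts and other interstitial cells rather than in the myofibres. In RNA from whole tissue, fewer cells of a type and less RNA per cell cannot be told apart.

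Promoter sequence in the mouse RefSeq annotation (GRCm38.p6) was found for 35 of the 44 genes. The stretches below are the 130 bases before the start of 6 genes and are shown because the levels of 3 of them followed those of Col1a1 from mouse to mouse and those of the other 3 did not, as described further on. Capitals mark the letters of a CCAAT box, a TATAAA box and the GC box GGGCGG, each searched on both strands, and no matches overlap in these stretches. The first 3 belong to Col3a1 (chr1:45311408-45311537, plus strand), Col5a3 (chr9:20815068-20815197, minus strand) and Col8a1 (chr16:57754738-57754867, minus strand), each written 5′ to 3′ on the strand of its gene.
Col3a1: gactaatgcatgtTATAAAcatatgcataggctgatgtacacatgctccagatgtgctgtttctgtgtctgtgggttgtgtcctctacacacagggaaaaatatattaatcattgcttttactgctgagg
Col5a3: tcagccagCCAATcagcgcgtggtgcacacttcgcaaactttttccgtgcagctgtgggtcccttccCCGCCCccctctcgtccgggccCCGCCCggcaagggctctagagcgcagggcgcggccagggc
Col8a1: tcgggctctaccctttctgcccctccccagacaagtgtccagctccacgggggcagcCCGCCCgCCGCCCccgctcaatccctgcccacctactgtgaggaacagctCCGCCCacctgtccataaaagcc

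The other 3 belong to Col7a1 (chr9:108953456-108953585, plus strand), Col23a1 (chr11:51289790-51289919, plus strand) and Col24a1 (chr3:145292342-145292471, plus strand).
Col7a1: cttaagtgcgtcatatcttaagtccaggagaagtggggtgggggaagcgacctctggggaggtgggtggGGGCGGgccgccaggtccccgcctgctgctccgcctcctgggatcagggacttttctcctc
Col23a1: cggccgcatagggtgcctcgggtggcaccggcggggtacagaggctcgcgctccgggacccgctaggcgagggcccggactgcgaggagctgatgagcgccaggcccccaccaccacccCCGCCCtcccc
Col24a1: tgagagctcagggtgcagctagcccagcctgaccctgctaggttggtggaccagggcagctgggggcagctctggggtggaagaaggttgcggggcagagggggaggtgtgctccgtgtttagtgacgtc

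Over windows from 250 bases before to 50 bases after the start, GGGCGG was present in 22 of the 35 collagen windows (62.9%) and in 35.6% of the 32817 windows of all genes. Each collagen gene gave a single window, the one nearest its annotated start, while a gene in the background could give several. CCAAT was present in 12 of the 35 (34.3%, against 37.4% of all windows) and TATAAA in 5 (14.3%, against 13.6%). A match is a description of the letters in the window and was not tested as a site.

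The family took between 0.0227% and 0.236% of the counts of a mouse. Col3a1 gave 16.95% of all collagen counts, Col4a1 11.6%, Col1a2 10.7%, Col4a2 9.36% and Col1a1 7.70%, and the 10 highest genes together gave 79.8%. These 10 were the chains of types I, III and IV that are known from connective tissue and basement membrane, the 3 main chains of type VI, Col5a3 and Col7a1, the chain of anchoring fibrils. At the other end, Col6a4 had 11 counts in all and was seen in 8 mice, and the cartilage chains Col2a1, Col9a2 and Col10a1 had 56, 47 and 36 counts. Other chains known from cartilage ranged higher, with 75 counts for Col9a3, 127 for Col11a1, 685 for Col9a1 and 3580 for Col11a2. Of the 15 genes under 1 CPM, Col8a2, Col13a1 and Col19a1 still passed the filter.

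**Figure D1:**
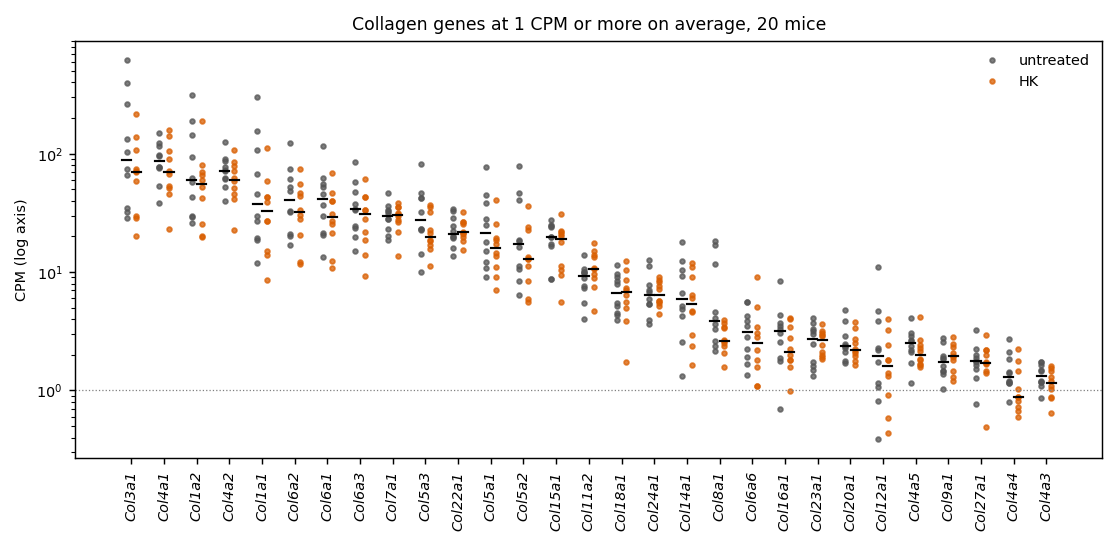
Level of each of the 29 collagen genes with at least 1 CPM on average, in CPM on a log axis, with 1 point per mouse (grey untreated, orange HK) and a bar at the median of each group of 10. The highest points of Col3a1, Col1a2 and Col1a1 belong to untreated mice, and the groups overlap in every gene.

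Per kilobase of the longest coding transcript, which allows levels of different genes to be compared, Col3a1 was highest, at 23.1 ± 26.8 CPM per kb (SD, n = 20). It was followed by Col1a2 (15.1 ± 13.97), Col4a1 (12.97 ± 5.73), Col4a2 (10.6 ± 3.73), Col1a1 (9.89 ± 11.7), Col6a1 (9.48 ± 5.99) and Col6a2 (9.03 ± 5.81 CPM per kb). For Col3a1 and Col1a1 the SD was larger than the mean. Col3a1 was above Col1a2 in 18 of 20 mice and Col4a1 above Col4a2 in 17 of 20, while Col1a2 and Col4a1 could not be put in order, with Col1a2 higher in 8 of 20. Col1a1 stood above Col6a1 by its mean but was the higher gene in 5 of 20 mice, and its median (5.80 CPM per kb) was below those of Col6a1 (8.325) and Col6a2 (7.12), so its place in the order rests on a few mice. Col6a2 was above Col5a3, the next in order, in 20 of 20 mice. With all annotated exons as the length, Col1a2 fell from rank 2 to rank 6.

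Chains that are known to share a protein were compared per kilobase of coding transcript. The ratio of Col6a1 to Col6a2 had a median of 1.05 and ran from 0.898 to 1.31 over the 20 mice (median 1.75 with all annotated exons as the length), and that of Col4a1 to Col4a2 had a median of 1.18 (0.947 to 1.62, and 1.08 with all exons). Col5a1 to Col5a2 had a median of 1.01 (0.654 to 1.197, and 1.44 with all exons). The type IV pair was thus the one whose ratio changed least with the length used. Col1a1, which gives 2 of the 3 chains of type I collagen, stood at 0.582 of Col1a2 (0.355 to 0.869), but at 1.22 of it (0.745 to 1.83) with all annotated exons, so the order of these chains depends on the length used. Col6a3, the longest of the main type VI chains, stood at 0.375 of Col6a1 (0.285 to 0.459). Most of these medians also differed between batch 1 and batch 2. Per coding transcript they were 1.05 and 1.26 for Col4a1 to Col4a2, and 1.05 and 0.828 for Col5a1 to Col5a2. For Col1a1 to Col1a2 they were 0.514 and 0.649, for Col6a3 to Col6a1 0.414 and 0.353, and for Col6a1 to Col6a2 1.05 and 1.04.

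The levels of these chains also moved together from mouse to mouse. On log2 CPM adjusted for batch, sex and treatment, Pearson's r over the 20 mice was 0.987 for Col6a1 and Col6a2 (Spearman's rho 0.962), 0.978 for Col1a1 and Col1a2 (rho 0.959), 0.978 for Col1a1 and Col3a1 (rho 0.971), 0.970 for Col4a1 and Col4a2 (rho 0.953) and 0.877 for Col5a3 and Col5a1 (rho 0.764). An exact two-sided permutation test within group, sex and batch gave p = 4.82e-05 for the type IV and type VI pairs, the smallest that the 20736 arrangements allow, 9.65e-05 for both pairs with Col1a1 and 0.000386 for the type V pair, or 0.000121, 0.000121 and 0.000386 adjusted over the 5 pairs. The permutation p of rho was 4.82e-05, 9.65e-05 and 0.00198, or 0.000121, 0.000121 and 0.00198 adjusted. Within each batch alone r was between 0.883 and 0.991, and without the 2 mice farthest from the median it was between 0.819 and 0.982. Genes of 1 mouse share its library and its scaling.

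Set against Col1a1 in the same way, 19 of the other 28 genes at 1 CPM or more had r over 0.5 in both batches, against 6.95% of the 13625 other tested genes, and no collagen had r under -0.5 in both. Besides Col1a2 and Col3a1 these were led by Col5a1 (r = 0.968), Col12a1 (0.949, a FACIT chain of tendon and muscle sheaths), Col5a2 (0.940), Col6a2 (0.925) and Col6a1 (0.924), and they took in the type IV chains Col4a1 (0.727), Col4a2 (0.776) and Col4a5 (0.817), the multiplexins Col15a1 (0.855) and Col18a1 (0.767), and Col8a1 (0.726). The genes outside this group were Col4a3, Col4a4, Col6a6, Col7a1, Col9a1, Col11a2, Col22a1, Col23a1 and Col24a1, with r between -0.318 (Col9a1) and 0.557 (Col6a6). Col22a1, a FACIT chain known from the junction of muscle and tendon, was among them (0.404), as was Col7a1 (-0.276). This comparison was chosen after the fits were seen, and r is given as a description. Of the genes with promoter sequence, GGGCGG was present in 11 of 16 that followed Col1a1 and in 4 of 7 that did not, CCAAT in 7 of 16 and 1 of 7, and TATAAA in 1 of 16 and 1 of 7.

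**Figure D2:**
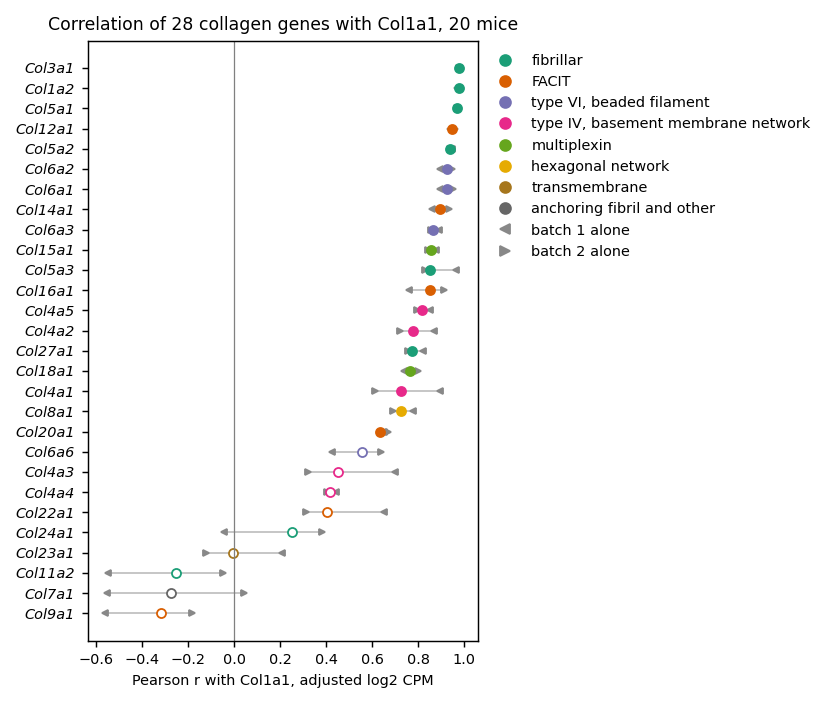
Pearson's r of each of 28 collagen genes with Col1a1 over 20 mice, on log2 CPM adjusted for batch, sex and treatment, colored by class. Triangles give r within batch 1 and batch 2, and filled circles mark the 19 genes with r over 0.5 in both, from 0.978 for Col1a2 and Col3a1 to 0.633 for Col20a1.

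To see whether treatment with HK was accompanied by a change of the family, the treatment term of an edgeR quasi-likelihood fit was tested beside terms for sex and batch. No collagen passed an adjusted p of 0.05, nor did any of the 13626 genes (0% higher and 0% lower). DESeq2 and limma voom called 0 collagens as well, and DESeq2 called 7 genes in all. At an unadjusted p under 0.05 there was 1 collagen lower in HK-treated mice, Col8a1, and 0 higher, against 3.35% of all genes lower and 2.78% higher. The fitted log2 fold change was below 0 for 27 of the 32 collagens (84.4%, against 49% of all genes), with a median of -0.21 against 0.0024 for all genes. The 27 are not independent of each other, since most of them followed Col1a1.

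Col8a1, a short-chain collagen of vessel walls and remodeling matrix (ENSMUSG00000068196, GRCm38 chromosome 16, 57624258 to 57754737), had 2.16, 3.87 and 18.3 CPM as lowest, median and highest of the untreated mice and 1.58, 2.63 and 3.91 CPM in HK-treated mice. HK-treated mice were lower by 1.05 ± 0.28 on the log2 scale (SE; 2.07-fold), with an unadjusted p of 0.0013 and an adjusted p of 0.795, and 9 of 10 of them were below the untreated median. The 3 untreated males of batch 2 had 11.8, 16.8 and 18.3 CPM and stood apart from all other mice, which had 1.58 to 4.58 CPM. The 3 HK-treated males of that batch had 2.65, 3.41 and 3.91 CPM. In females Col8a1 had 2.62, 3.62 and 4.58 CPM in untreated and 1.58, 2.54 and 3.37 CPM in HK-treated mice, and the groups overlapped. The log2 difference was -0.21 in batch 1 alone and -1.40 in batch 2 alone, and -0.32 without the 6 males of batch 2. That last fit was chosen after these values were seen, so its smaller difference is a description only.

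The fibrillar chains of types I, III and V had negative fitted values that did not pass the test, with a median of -0.51 over the 9 tested fibrillar genes. Col3a1 had 28.9, 89.1 and 623 CPM in untreated and 20.2, 70.4 and 217 CPM in HK-treated mice (lowest, median, highest), a log2 difference of -0.75 ± 0.40 (adjusted p = 0.805). Col1a1 had 11.8, 37.8 and 303 CPM in untreated and 8.63, 33.0 and 113 CPM in HK-treated mice (log2 -0.70 ± 0.37, adjusted p = 0.805). Medians of the groups lay closer together than their highest mice. In both genes the groups overlapped, and the highest untreated mouse was above every HK-treated mouse.

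Col1a2, the partner of Col1a1, had 26.2, 60.1 and 314 CPM in untreated and 19.8, 55.9 and 190 CPM in HK-treated mice (log2 -0.47 ± 0.31, adjusted p = 0.830). Among the type V chains, which set the width of type I fibrils, Col5a3 had 10.1, 27.6 and 82.6 against 11.3, 20.0 and 37.1 CPM (log2 -0.51 ± 0.25), Col5a1 9.11, 21.5 and 77.2 against 6.99, 15.98 and 40.5 CPM (log2 -0.53 ± 0.27), and Col5a2 6.41, 17.3 and 78.8 against 5.57, 12.95 and 35.9 CPM (log2 -0.59 ± 0.29), with an adjusted p of 0.795 for each. Col11a2 was the fibrillar gene on the other side, with 4.04, 9.35 and 13.9 CPM in untreated and 4.72, 10.7 and 17.6 CPM in HK-treated mice (log2 0.34 ± 0.18, adjusted p = 0.805).

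**Figure D3:**
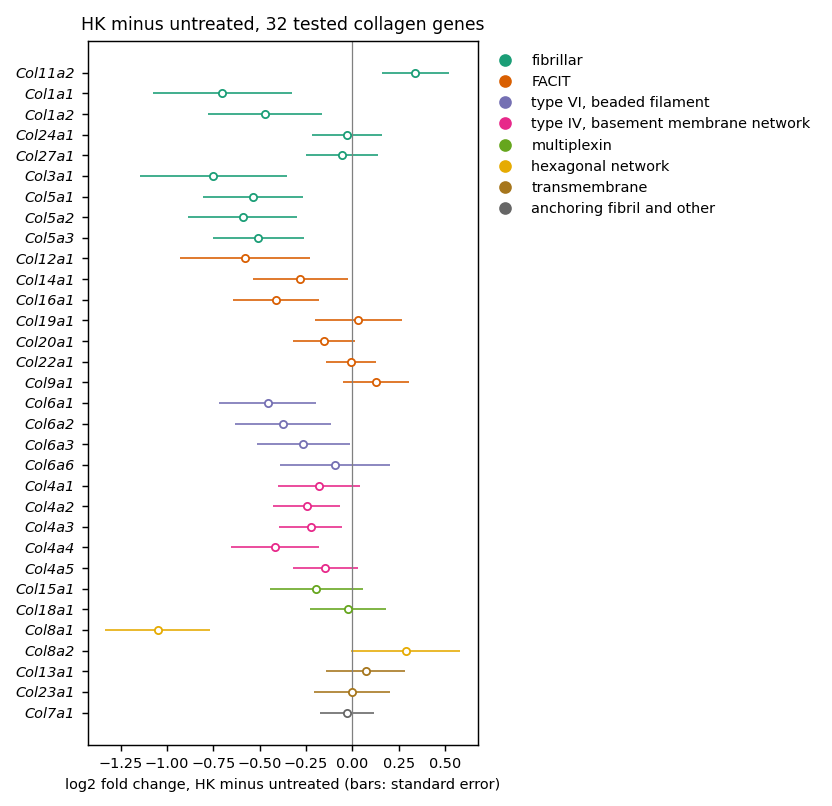
Log2 fold change (HK minus untreated) of the 32 tested collagen genes, with bars of 1 standard error, colored by class. Open circles did not pass an adjusted p of 0.05, and this holds for all 32; Col8a1 is farthest from 0, at -1.05, and 27 values are below 0.

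The type VI chains, which tie the basement membrane of the myofibre to its surroundings, ranged from -0.09 (Col6a6) to -0.46 (Col6a1). Col6a1 had 13.4, 41.6 and 116 CPM in untreated and 10.8, 29.0 and 69.0 CPM in HK-treated mice (adjusted p = 0.805), Col6a2 16.99, 40.6 and 124 against 11.7, 31.9 and 75.0 CPM (log2 -0.37 ± 0.26, adjusted p = 0.832), and Col6a3 15.2, 34.1 and 84.8 against 9.34, 30.9 and 61.4 CPM (log2 -0.26 ± 0.25, adjusted p = 0.867). The groups overlapped in each. The type IV chains of the basement membrane had a median of -0.22 over 5 genes, from -0.15 (Col4a5) to -0.42 (Col4a4). Col4a1 had 38.7, 87.1 and 150 CPM in untreated and 23.1, 69.7 and 158 CPM in HK-treated mice (log2 -0.18 ± 0.22, adjusted p = 0.907), and Col4a2 39.9, 72.0 and 126 against 22.8, 60.6 and 107 CPM (log2 -0.25 ± 0.18, adjusted p = 0.837). Col7a1 had 18.6, 29.9 and 46.2 against 13.7, 30.4 and 38.0 CPM (log2 -0.03 ± 0.15), and the 95% confidence interval of its difference ran from -0.31 to 0.26. For Col1a1 that interval ran from -1.43 to 0.03 and for Col3a1 from -1.53 to 0.03, so at this spread between mice neither no difference nor a 2-fold lower level lay outside the interval. The normal quantile makes these intervals somewhat narrower than the test would.

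The 3 untreated males of batch 2 had the highest family share and the highest Col1a1, Col1a2 and Col3a1 of their group, but not the 3 highest levels of Col4a1 or Col5a3. Their collagen share was 0.117%, 0.150% and 0.236% of counts, while that of the 3 HK-treated males of batch 2 was 0.0512%, 0.0756% and 0.128%, and no untreated mouse outside those 3 males was above 0.0818%. Col1a1 had 107, 157 and 303 CPM in the untreated and 42.9, 43.1 and 113 CPM in the HK-treated males of batch 2, and Col3a1 had 262, 395 and 623 against 74.1, 108 and 217 CPM. Without the 6 males of batch 2 the log2 difference was -0.21 for Col1a1, -0.19 for Col3a1, -0.19 for Col1a2 and -0.15 for Col5a2, the median over the collagens was -0.14, and 0 collagens had an unadjusted p under 0.05. These males were left out after the high values of the untreated ones were seen. Smaller differences without them could thus be foreseen and are a description only. In females alone Col1a1 was at -0.21 and Col3a1 at -0.22, and in males alone at -1.04 and -1.08. The summed level of 10 macrophage markers was 141 to 188 CPM in the 3 untreated and 66.8 to 152 CPM in the 3 HK-treated males of batch 2, that of 10 fibroblast markers 658 to 1021 and 559 to 1279 CPM, and that of 9 tendon markers 136 to 161 and 91.4 to 577 CPM. Over all mice the fitted values in HK-treated mice were negative for 10 of 10 macrophage (median -0.29), 8 of 8 endothelial (-0.25), 8 of 8 smooth muscle and pericyte (-0.23) and 10 of 10 fibroblast markers (-0.17) and positive for 7 of 8 Schwann cell markers (0.24), with 0 called. They were also positive for 5 of 7 tested tendon (median 0.04), 4 of 7 adipocyte (0.05) and 6 of 9 fast myofibre markers (0.06), with 0 called. The endothelial markers summed to 139.6, 201 and 248 CPM in untreated and 78.2, 178 and 244 CPM in HK-treated mice (lowest, median, highest). Those of smooth muscle and pericytes summed to 3293, 4709 and 6284 against 3434, 4277 and 5213 CPM. This last list holds Des, which is also known from myofibres, so its sum does not measure those cells alone. The part of these markers in the collagen values was not tested.

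**Figure D4:**
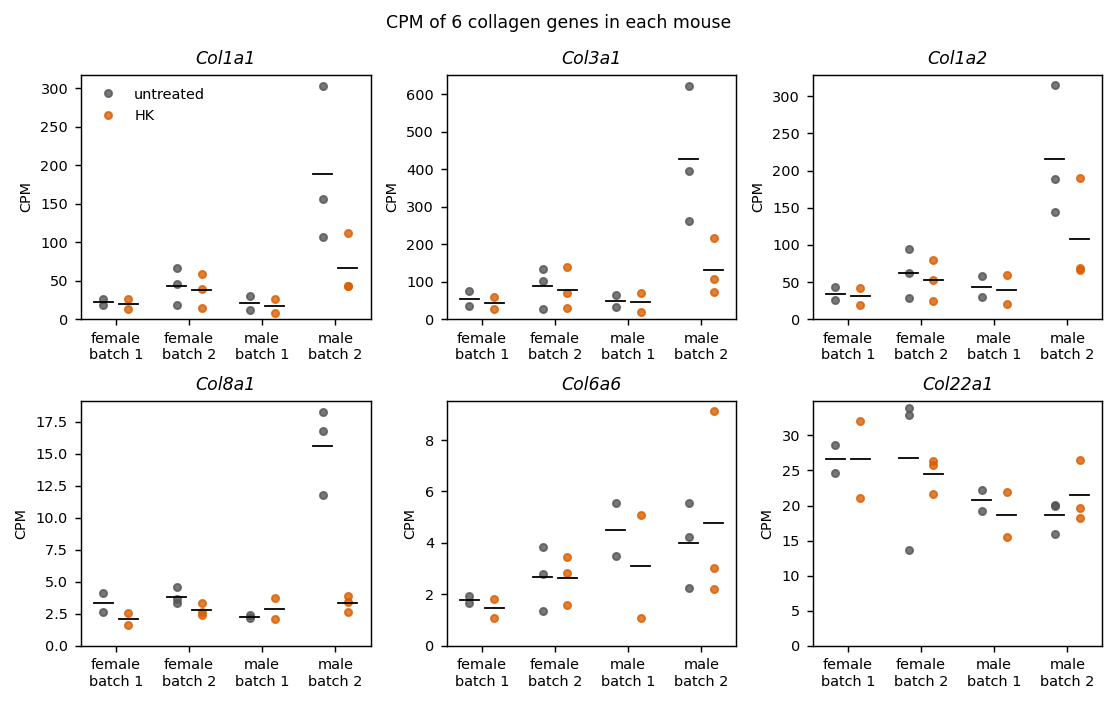
CPM of 6 collagen genes in every mouse, split by sex and batch, with grey points for untreated and orange for HK-treated mice and a bar at the mean of the 2 or 3 mice. The 3 untreated males of batch 2 lie above every other mouse for Col3a1 (262 to 623 CPM) and Col8a1 (11.8 to 18.3 CPM), and overlap with other mice for Col6a6 and Col22a1.

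Whether the difference between HK-treated and untreated mice varied with sex or batch was tested by interaction terms over 13800 genes, of which 33 were collagens. No gene and no collagen passed an adjusted p of 0.05 for either term (0% in each direction), and DESeq2 and limma voom called 0 collagens. At an unadjusted p under 0.05 there were 0 collagens for treatment by sex (1.81% of all genes more positive in males and 1.69% more negative). For treatment by batch there was 1 in each direction (1.57% of all genes more positive in batch 2 and 1.44% more negative). Col8a1 had a difference that was lower in batch 2 by 1.16 ± 0.54 on the log2 scale, and Col9a1, a FACIT chain, one that was higher by 0.71 ± 0.33. Col9a1 had 1.02, 1.73 and 2.78 CPM in untreated and 1.21, 1.94 and 2.85 CPM in HK-treated mice.

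The next genes in this order had larger p. Col11a2 had a batch term of 0.64 ± 0.35. For treatment by sex, Col19a1 (0.73 ± 0.45), Col8a1 (-0.86 ± 0.55) and Col13a1 (0.65 ± 0.41, a transmembrane collagen of the neuromuscular junction) had the lowest p, 0.120, 0.129 and 0.132 unadjusted. Col19a1 had 0.311, 0.66 and 0.927 CPM in untreated and 0.364, 0.616 and 1.16 CPM in HK-treated mice, and Col13a1 had 0.232, 0.655 and 1.27 CPM in untreated and 0.322, 0.69 and 1.09 CPM in HK-treated mice, so the groups overlapped in both. The lowest adjusted p was 0.998 for treatment by sex and 0.9997 for treatment by batch. Differences within a sex or batch given above were therefore not shown to differ from each other.

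Males and females were compared by the same fit. There were 3 collagens higher in males past an adjusted p of 0.05 and 0 higher in females, and 8.79% of all tested genes were called higher in males and 7.33% in females. The share of collagens called higher in males (9.38%) was thus near that of all genes. At an unadjusted p under 0.05 there were 8 higher in males and 2 higher in females, with 15.6% and 14.8% over all genes. The fitted value was above 0 for 26 of 32, with a median of 0.23 and one of -0.0065 over all genes. DESeq2 called 4 collagens and limma voom 3 between the sexes, and Col6a6 was not among the calls of limma voom (adjusted p = 0.0738).

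Col1a2 had 19.8, 42.7 and 94.7 CPM in females and 20.4, 67.7 and 314 CPM in males (lowest, median, highest), and males were higher by 1.02 ± 0.31 on the log2 scale (2.03-fold, adjusted p = 0.0300), with 8 of 10 males above the female median. Col6a6, a further type VI chain, had 1.09, 1.86 and 3.84 CPM in females and 1.09, 3.84 and 9.12 CPM in males (log2 0.94 ± 0.30, adjusted p = 0.0351), with 9 of 10 males above the female median. Col8a1 had 1.58, 2.96 and 4.58 CPM in females and 2.08, 3.55 and 18.3 CPM in males (log2 0.86 ± 0.28, adjusted p = 0.0421). The sexes overlapped in all 3 genes, and for Col8a1 only 6 of 10 males were above the female median. Leaving out 1 mouse ended the call of Col8a1 in 13 of 20 fits (adjusted p up to 0.0959), that of Col6a6 in 10 (up to 0.0799) and that of Col1a2 in 5 (up to 0.0643).

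Col5a2 (0.73 ± 0.30), Col3a1 (0.94 ± 0.41) and Col1a1 (0.87 ± 0.38) had like values that did not pass the adjustment, with adjusted p of 0.102, 0.120 and 0.127. Col3a1 had 28.8, 64.4 and 140 CPM in females and 20.2, 91.0 and 623 CPM in males, Col1a1 13.9, 26.9 and 66.9 against 8.63, 43.0 and 303 CPM, and Col5a2 5.95, 12.3 and 24.2 against 5.57, 17.8 and 78.8 CPM. Males had both the lowest and the highest mouse in these genes. Col11a2 had 4.04, 8.19 and 15.1 CPM in females and 7.61, 10.6 and 17.6 CPM in males (log2 0.44 ± 0.18, adjusted p = 0.103). On the other side, Col22a1 had 13.7, 26.0 and 33.9 CPM in females and 15.5, 19.8 and 26.5 CPM in males (log2 -0.39 ± 0.13, adjusted p = 0.0547), with 1 of 10 males above the female median, and Col24a1 (-0.39 ± 0.19, adjusted p = 0.163) was the other gene at an unadjusted p under 0.05.

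For Col1a1, Col1a2, Col3a1, Col5a2 and Col8a1 the fitted difference between the sexes was larger in batch 2 than in batch 1. For Col1a1 the log2 difference of males from females was -0.15 in batch 1 and 1.47 in batch 2, for Col3a1 -0.04 and 1.504, for Col8a1 -0.0089 and 1.23, for Col1a2 0.37 and 1.42, and for Col5a2 -0.15 and 1.23. Col6a6 was at 1.26 in batch 1 and 0.73 in batch 2, Col11a2 at 0.68 and 0.31 and Col22a1 at -0.43 and -0.36, so these 3 had the same sign in both. In a test of the difference itself, the term of sex and batch passed an adjusted p of 0.05 for 0 collagens and 0 genes (0% in each direction). At an unadjusted p under 0.05 there were 8 collagens more positive in batch 2 and 0 more negative, against 6.52% and 6.45% of all genes. These were Col12a1 (1.69 ± 0.68), Col1a1 (1.68 ± 0.68), Col3a1 (1.60 ± 0.74), Col5a2 (1.38 ± 0.54), Col8a2 (1.30 ± 0.56), Col8a1 (1.197 ± 0.53), Col16a1 (1 ± 0.44) and Col27a1 (0.89 ± 0.36). This test was chosen after the values within batches were seen. Without the 6 males of batch 2 no collagen was called between the sexes, and Col6a6 was at 1.26 (adjusted p = 0.0800). That fit leaves males in batch 1 only, so it nearly repeats the comparison within batch 1 and is no separate check.

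Marker genes of other cells were compared between the sexes too. Over all genes 8.79% were called higher in males and 7.33% in females. Thus 1 call in a list of 10 or fewer is not read as a difference. Of 10 macrophage markers 9 had higher fitted values in males and 1 (Cd68) was called, with a summed level of 23.3 to 114 CPM in females and 15.7 to 188 CPM in males. Of 7 tested tendon markers 7 had higher fitted values in males and 1 (Thbs4) was called. Of 9 fast myofibre markers 3 were called higher in males. In females 6 of 7 adipocyte and 4 of 8 Schwann cell markers were called higher. Fitted values of 8 of 8 endothelial markers were lower in males with 0 called, and 0 of 10 fibroblast markers were called. Their part in the collagen values was not tested.

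More collagens were called between the batches than between the treatments or the sexes. There were 18 of 32 collagens called higher in batch 2 and 0 higher in batch 1, while 18.2% of all tested genes were higher in batch 2 and 19% in batch 1. These included 7 of 9 fibrillar genes, 3 of 7 FACIT genes, 3 of 4 type VI chains and 3 of 5 type IV chains. Col1a1 (log2 1.70 ± 0.41), Col12a1 (1.57), Col14a1 (1.55) and Col3a1 (1.54) had the largest values. The collagens that were not called included Col7a1, Col22a1, Col23a1, Col24a1, Col9a1 and Col11a2, as well as Col4a3 and Col4a4, the type IV chains known from the kidney and lung. The batches were sequenced apart and hold different mice, so the sequencing and the mice cannot be told apart. Of 10 macrophage markers 10, of 10 fibroblast markers 9, of 7 tendon markers 5 and of 7 adipocyte markers 3 were also called higher in batch 2, and their part was not tested.

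**Figure D5:**
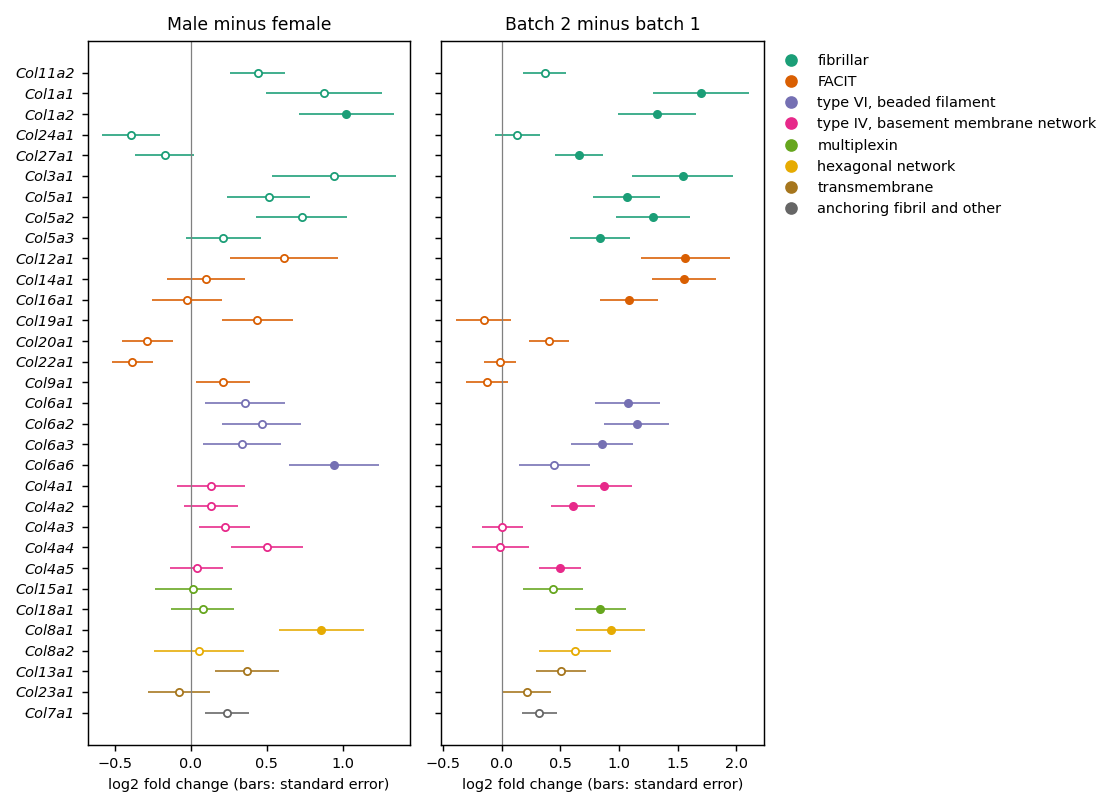
Log2 fold change of the 32 tested collagen genes between males and females (left) and between batch 2 and batch 1 (right), with bars of 1 standard error, colored by class. Filled circles passed an adjusted p of 0.05, which are Col1a2, Col6a6 and Col8a1 for sex and 18 genes, all higher in batch 2, for batch.

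The genes that make, process and hold collagen were taken from 6 lists, and 0 of their members were called between HK-treated and untreated mice. Among 19 tested genes of procollagen modification and folding, 14 had negative fitted values, and Fkbp10, a collagen chaperone (log2 -0.63 ± 0.22), and P3h2, a prolyl hydroxylase of basement membrane collagen (-0.57 ± 0.21), had the lowest p (adjusted p = 0.795 for both). Of 11 genes of propeptide cleavage and cross-linking 9 were negative, with Lox, the lysyl oxidase that cross-links fibrils, at -0.55 ± 0.26 and Bmp1, which removes the C-propeptide, at -0.38 ± 0.19. Of 20 proteins that bind fibrils 17 were negative (49% of all genes were) and 6 were lower at an unadjusted p under 0.05 (3.35% of all genes). Postn, which codes for periostin, was at -1.71 ± 0.54 and Aspn, a small proteoglycan, at -0.70 ± 0.24, with an adjusted p of 0.795 for both.

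Of 11 basement membrane partners of type IV collagen 10 were negative, with Pxdn, which cross-links type IV, at -0.34 ± 0.17 and the laminin chain Lama2 at -0.19 ± 0.12. Of 8 tested collagen receptors 7 were negative, with Mrc2, which takes up collagen fragments, at -0.36 ± 0.20 and Itgb1 at -0.12 ± 0.07. Among 10 genes of TGF-beta ligands and early targets 6 were negative, with Inhba at -0.49 ± 0.16 and Ltbp2 at -0.68 ± 0.32. The medians of the 6 lists lay between -0.03 (modification and folding) and -0.36 (cleavage and cross-linking), and that of all genes at 0.0024. Besides the 6 of 20 fibril-binding proteins, 2 of 19 genes of modification and folding had an unadjusted p under 0.05. So did 1 of 11 genes of cleavage and cross-linking, 2 of 10 TGF-beta genes, 0 of 11 basement membrane partners and 0 of 8 receptors. Together these were 11 of 79 tested genes (13.9%, against 6.13% of all genes), and no set test was run.

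Between the sexes 11 of the 79 tested genes of these lists were called (13.9%, against 16.1% of all genes), a share near that of all genes. Lox (log2 0.97 ± 0.26, adjusted p = 0.0142), Sparc, a collagen-binding matrix protein (0.53 ± 0.15), Mia3, which loads procollagen into transport carriers (0.26 ± 0.06), and Ltbp1 (0.38 ± 0.11) were higher in males. Lamb2, the laminin chain of the synaptic basement membrane (-0.63 ± 0.07, adjusted p = 9.1e-07), Aebp1 (-0.80 ± 0.12), P3h2 (-0.80 ± 0.21), Mia2 (-0.22 ± 0.05), Itga1, a receptor of type IV and other collagens (-0.51 ± 0.12), Tgfb3 (-0.21 ± 0.06) and Plod2 (-0.66 ± 0.21) were higher in females.

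Of the genes under 1 CPM, Col17a1, the transmembrane collagen of epidermal cells, was set by 1 mouse. It had 113 of its 209 counts in untreated Female_1, where its level was 3.998 CPM, and no more than 0.832 CPM in any other mouse. The 6 keratinocyte markers of the fixed list summed to 43.9 CPM in the same mouse, to 5.37 CPM in untreated Female_2, which had the second highest Col17a1 (0.832 CPM), and to no more than 3.60 CPM in any other mouse, with Krt5 at 17.7 and Krt14 at 14.7 CPM there and a median of 0 CPM in both groups. The part of these markers in the Col17a1 level was not tested. Col17a1 did not pass the filter and entered no test.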

How the data were processed

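Gastrocnemius RNA of 20 mice was analysed from a table of whole-number counts per gene that the authors deposited. Per the study's methods and the submitters' processing notes, the authors checked reads with FastQC, aligned them in 2 passes with STAR 2.6.1c to GRCm38.p6, quantified them per gene on GENCODE M25 and used DESeq2 1.28.1. The counting tool, its use of strand and its handling of reads with several matches were not given in the sources used here. Gene names and positions came from GENCODE M21, which held 55141 of 55401 identifiers, and the 260 others held 0.00127% of counts.

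Counts were scaled by TMM, filtered by filterByExpr and fitted by edgeR 4.0.16 (R 4.3.3) with batch, sex and treatment, or with an interaction term, and p was adjusted over all genes by Benjamini-Hochberg at 0.05. Log2 CPM used a prior count of 2. DESeq2 1.42.0 and limma 3.58.1 were alternatives, and the code was tested on simulated data. The members and lists were chosen with earlier results of these data known. Values were given for the 10 collagens with the highest mean CPM and the 6 and 8 with the lowest p for treatment and sex. The 3 with the lowest p for each interaction were given too. Of the related lists, up to 2 genes each were named for treatment, and all 11 genes called between the sexes. Other genes, such as Col17a1 and those of the sex by batch term, were named after their values were seen. Replicate libraries differed by more than sampling noise. Overlapping exons of Col4a1 and Col4a2 lie on opposite strands, so shared reads cannot be told apart without strand.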

Additional observations from a re-analysis of the deposited data

Results flagged for a closer look

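In 58 groups of 10 mice (29 collagen genes in both treatments), the gap of the lowest or highest mouse to its neighbour was set against the range of the group on log2 CPM adjusted for batch and sex. The ratio was above Dixon's 95% critical value in 2 groups, while about 1 in 20 groups (2.9) pass by chance. Col18a1 was low in untreated Female_3, with a ratio of 0.53, at 1.72 on that adjusted scale, where the next mouse was at 2.45. Its 4.35 CPM was not the lowest of the group before the adjustment, since untreated Male_2 had 3.94 CPM. Col27a1 was low in HK-treated Male_1, with a ratio of 0.48, at -0.29 on the adjusted scale with the next mouse at 0.41, and at 0.492 CPM against a group median of 1.72 CPM.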

How the results depend on the processing

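Between HK-treated and untreated mice 0 collagens were called under every alternative except the fit with no filter on low counts, which called 13 collagens and 502 genes in all, with 20 collagens at an unadjusted p under 0.05, 23 genes of the related lists, and 15 collagens and 37 related genes between the sexes. It also called 4 collagens for treatment by sex and 4 for treatment by batch. In that fit on 30096 genes the prior degrees of freedom became infinite, against 4.26 with the filter and 6.48 when genes needed 5 counts over all mice. DESeq2 called 7 genes in all. The number of collagens at an unadjusted p under 0.05 was 2 with limma voom, with batch as the only covariate and in batch 2 alone, 4 in males alone and with at least 5 counts in total, and 0 in batch 1 alone and without the males of batch 2. The collagens called between the sexes were 0 with no covariates, in batch 1 alone, in untreated mice alone, in HK-treated mice alone and without the males of batch 2, and 2 with at least 5 counts in total. The genes of related lists called between the sexes were 5 in batch 1 alone, 2 in untreated mice, 6 in HK-treated mice and 4 without the males of batch 2. The cause was not tested.

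The difference of males from females turned in batch 1 alone for Col1a1 (-0.15), Col3a1 (-0.039), Col5a2 (-0.15) and Col8a1 (-0.0089), and without the males of batch 2 for Col1a1 (-0.15), Col3a1 (-0.038) and Col5a2 (-0.16). Both settings compare the sexes within batch 1 only, so they are not separate checks. Col7a1 turned between treatments in females alone (0.032) and without the males of batch 2 (0.080), and ran from -0.093 to 0.052 when 1 mouse was left out. Leaving out each mouse in turn gave 0 collagens called between treatments, 1 to 8 at an unadjusted p under 0.05 (8 without untreated Male_2 or untreated Female_3, 7 without HK-treated Female_2), 0 to 1 genes in all (1 without HK-treated Female_1) and 0 to 4 collagens between the sexes (0 without untreated Female_5 or HK-treated Female_3). Between the sexes Col1a2 lost its call in 5 of 20 such fits, Col6a6 in 10 and Col8a1 in 13.

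With the replicate block, 0 collagens were called and 11 had an unadjusted p under 0.05. In this and the other alternative fits between treatments, the share of all genes at that unadjusted threshold was not counted. These collagen counts therefore cannot be set against a general shift of p. Mice with the same replicate label share sex and batch. With batch, sex and treatment removed, the correlation of their deviations ran from -0.33 to 0.23. By this measure 0 of 10 pairs matched best with their own number, so no further pairing was seen. The alternatives with at least 5 counts, within 1 treatment and without the males of batch 2, and the sex by batch term, were chosen after seeing the data. The spread between 10 mice per group and 13900180 to 30469644 counts per mouse limit what these fits can detect.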
